A study of Mus musculus with 8 samples.

Results

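Serpins are protease inhibitors that work once: the target protease cuts an exposed loop, is dragged across the serpin and is locked to it in a dead complex. Clade b serpins lack a classical signal peptide and stay mostly inside cells, where those of squamous epithelia and of leukocytes guard against lysosomal and granule proteases, whereas most serpins of the other clades are secreted and restrain proteases of coagulation, fibrinolysis, complement and inflammation. In the uterus, plasminogen activators and their serpin inhibitors take part in matrix turnover over the cycle, and squamous serpins are better known from stratified epithelia such as vagina and epidermis.

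The family was taken as every gene of the count table whose mouse symbol is Serpin followed by a clade letter a to i, a number and, for copies, a letter, *Serping1* included. This gave 63 genes of 52325, with 27 in clade b, 32 in clades a, e, f, g and h, which were set against clade b as the secreted clades, and 4 in clades c, d and i, which were counted apart. RNA of endometrium cut from uterine sections by laser was sequenced in 4 WT and 4 Thra1PV/+ mice, synchronised to metestrus. Thra1PV/+ mice carry 1 allele of the thyroid hormone receptor gene *Thra* with the dominant negative PV mutation in every cell, and WT mice carry none. Ages and strain background of these mice are not given in the sources used here. The libraries held between 48791883 and 59819099 counts. *Thra* itself ranged from 45.8 to 127 CPM in Thra1PV/+ and from 47.4 to 110 CPM in WT libraries. CPM are counts of a gene per 1000000 counts of the library, whose size was taken over the tested genes and scaled by TMM normalisation. Gene counts do not separate the PV allele, so *Thra* does not check the labels.

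Among the 63 members, 18 had no count in any library, another 18 had counts too low to test, at most 21 in any library, and 27 were tested. In 3 of the 27, *Serpinb2*, *Serpinb3c* and *Serpinb10*, all 4 Thra1PV/+ libraries reached 10 counts but at most 1 WT library did, so these entered the test through the libraries in which they were high. A call required at least a 2-fold difference and an adjusted p of at most 0.1 in edgeR's quasi-likelihood test over all 18174 tested genes, of which 0.99% were called. Called serpins numbered 3, *Serpinb2*, *Serpinb7* and *Serpinb10*, all of clade b and all higher in Thra1PV/+ endometrium, and 0 of the 14 tested secreted-clade members were called in either direction. At an unadjusted p under 0.05, 6 of the 11 tested clade b members were higher and 0 lower, against 5.05% of all genes that were higher and 4.72% that were lower at that p. The 6 include the 3 members that entered through the Thra1PV/+ libraries; of the 8 clade b members with at least 10 counts in every library, 3 were higher at that p (*Serpinb5*, *Serpinb7* and *Serpinb11*). Of the 14 tested secreted-clade members, 0 were higher and 2 lower. The median log2 fold change was 2.17 over the 11 clade b members and -0.04 over the 14 secreted members, beside -0.05 over all tested genes. The clade b median moved with the filter: it was 0.92 when every member with at least 1 count was included and 0.66 when at least 10 counts were required in every library.

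Clade b genes lie in 2 clusters, with 12 members within 749 kb of chromosome 1 and 15 members within 1161 kb of chromosome 13 (GRCm38). The split by cluster was looked at after the values had been seen. All 3 called genes lie in the chromosome 1 cluster, where 7 members were tested, their median log2 fold change was 3.54, and in 6 of 7 the 4 Thra1PV/+ libraries lay above all 4 WT libraries, a pattern found in 3.55% of all tested genes. Those 7 again include the 3 members of low WT counts, and in the 4 with at least 10 counts in every library, *Serpinb5*, *Serpinb7*, *Serpinb8* and *Serpinb11*, the log2 fold changes were 2.30, 3.54, 0.46 and 2.17, with the genotypes apart in 3. On chromosome 13, 4 members were tested, with a median of 0.25, and in 0 of 4 were the genotypes apart.

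The 300 bases around the RefSeq start sites of the 3 called genes (250 before the start and 50 after it, GRCm38.p6, plus strand of chromosome 1) are shown because the genes are neighbours and were higher together. Capitals mark matches to TGANTCA, a relaxed form of the AP-1 site that allows any middle base, and to TATAAA, the TATA box. Each was read on both strands. The TGANTCA match was TGAGTCA in *Serpinb7* and TGAATCA in *Serpinb2* and *Serpinb10*. The TGANTCA match nearest the start ended 38 bases before it in *Serpinb7*, 87 in *Serpinb2* and 47 in *Serpinb10*. A TATA match ended 27 and 23 bases before the start in *Serpinb7* and *Serpinb2*. In *Serpinb7*, a gene of the plus strand, each TATA match read TTTATA, so TATAAA lay on the strand opposite to the gene. From another RefSeq start site of *Serpinb2*, at 107511510, the TGANTCA and TATAAA matches ended 174 and 110 bases before the start. *Serpinb10* had no TATAAA in this window.
Serpinb7, chr1:107422439-107422738: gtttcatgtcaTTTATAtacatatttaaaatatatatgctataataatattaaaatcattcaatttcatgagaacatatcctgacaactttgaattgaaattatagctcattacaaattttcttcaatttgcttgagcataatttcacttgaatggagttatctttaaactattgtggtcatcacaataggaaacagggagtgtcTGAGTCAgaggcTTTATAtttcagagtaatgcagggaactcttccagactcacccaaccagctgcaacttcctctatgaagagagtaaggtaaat
Serpinb2, chr1:107511173-107511472: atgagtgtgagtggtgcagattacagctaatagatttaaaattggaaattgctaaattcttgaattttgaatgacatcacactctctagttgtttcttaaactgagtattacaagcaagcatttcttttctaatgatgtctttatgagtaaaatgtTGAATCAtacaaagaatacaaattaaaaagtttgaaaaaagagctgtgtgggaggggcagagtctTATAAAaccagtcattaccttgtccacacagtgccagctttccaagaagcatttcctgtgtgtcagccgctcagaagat
Serpinb10, chr1:107528753-107529052: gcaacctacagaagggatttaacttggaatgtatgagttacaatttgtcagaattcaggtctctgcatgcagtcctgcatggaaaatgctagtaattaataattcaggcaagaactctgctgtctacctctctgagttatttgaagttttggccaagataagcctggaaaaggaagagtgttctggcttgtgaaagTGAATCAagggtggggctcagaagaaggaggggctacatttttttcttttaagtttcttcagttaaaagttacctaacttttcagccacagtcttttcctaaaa

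RefSeq promoters of this kind were found for 53 of the 63 members. TGANTCA was present in the windows of 6 of the 7 tested clade b genes on chromosome 1 (*Serpinb2*, *Serpinb5*, *Serpinb7*, *Serpinb8*, *Serpinb10* and *Serpinb11*), in 0 of the 3 windows found for the 4 tested genes on chromosome 13, and in 7.81% of all 32851 windows. These were not the 6 genes whose genotypes lay apart: *Serpinb8*, with overlapping genotypes, had 2 matches and *Serpinb3c*, with the genotypes apart, had none. The matches read TGAGTCA in *Serpinb7* and *Serpinb8*, and TGAATCA or TGATTCA in the other genes with a match. TATAAA was present in the windows of 3 of the 7 genes, *Serpinb2*, *Serpinb3c* and *Serpinb7*, against 13.6% of all windows. In *Serpinb7* it was found only on the strand opposite to the gene. The thyroid hormone receptor element AGGTCA was found in that of 1 of the 7 genes, *Serpinb3c*, against 16.3% of all windows. A direct repeat of 2 such elements with 4 bases between them was found in 0 of the 7, against 0.0152%. Over the 62 windows of the 53 serpins, these 7 included, TGANTCA was present in 19.4%, TATAAA in 29% and AGGTCA in 32.3%. The shares count windows, of which a gene can have more than 1. The windows of *Serpinb7* and *Serpinb11* lie at RefSeq start sites that are 23034 and 1116 bases inside the gene bounds of the annotation used for position.

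*Serpinb7* (ENSMUSG00000067001.11, chromosome 1, 107399655 to 107452689) encodes megsin, a serpin of mesangial cells and of the upper epidermis. It measured 32.6, 10.8, 15.0 and 22.7 CPM in Thra1PV/+ libraries 1 to 4 and 1.05, 2.46, 0.816 and 2.64 CPM in WT libraries 1 to 4. The lowest Thra1PV/+ library was well above the highest WT library. The means were 20.3 ± 9.6 CPM and 1.74 ± 0.94 CPM (SD, n = 4 each), a log2 fold change of 3.54 (standard error 0.53, edgeR adjusted p = 0.0268). The call held whichever of the 8 libraries was removed, and in the stricter fit that kept genes with at least 10 counts in every library it was the 1 serpin called.

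*Serpinb10* (ENSMUSG00000092572.7, 107529003 to 107549271) encodes bomapin, known from bone marrow and myeloid cells. It measured 23.1, 11.2, 18.4 and 26.4 CPM in the Thra1PV/+ libraries and 0.0191, 0.163, 0.875 and 0.105 CPM in the WT libraries. WT library 1 held 1 count of it and WT library 3 held 44, so in ratio the WT libraries differed among themselves far more than the Thra1PV/+ libraries. In CPM the SD was 0.394 in WT and 6.61 in Thra1PV/+. Its log2 fold change of 6.08 was the largest of the tested serpins (standard error 0.98, edgeR adjusted p = 0.0373). The call was lost, with adjusted p between 0.102 and 0.121, in 4 of the 8 fits without 1 library (without Thra1PV/+ library 3 or 4, or WT library 2 or 4), while the log2 fold change stayed between 5.73 and 7.67, the highest without WT library 3.

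*Serpinb2* (ENSMUSG00000062345.10, 107511423 to 107535478) encodes plasminogen activator inhibitor 2, found in keratinocytes and stimulated macrophages. It had 76.8, 81, 77 and 48.9 counts in the Thra1PV/+ libraries and 0, 3, 4 and 1 counts in the WT libraries. These are low counts, 1.37 ± 0.356 CPM against 0.0387 ± 0.0352 CPM (SD, n = 4 each), yet the groups were far apart, with a log2 fold change of 5.06 (standard error 0.73, edgeR adjusted p = 0.0232). The fit without WT library 4 gave an adjusted p of 0.103. The annotated bounds of *Serpinb2* and *Serpinb10* overlap on the same strand, and how the authors' quantification divided reads between them was not tested. *Serpinb10* is listed there as a polymorphic pseudogene.

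The other members of the chromosome 1 cluster did not pass the call. *Serpinb11*, a serpin of epithelia, was the most abundant clade b member in Thra1PV/+ endometrium. It measured 110, 130, 95.2 and 138 CPM in the Thra1PV/+ libraries and 49.3, 16.9, 4.64 and 34.3 CPM in the WT libraries. Its libraries did not overlap between genotypes, but the WT values were widely spread, and the log2 fold change of 2.17 (standard error 0.60) had an edgeR adjusted p of 0.263. *Serpinb5*, which encodes maspin of basal and myoepithelial cells, measured 23.4, 45.6, 43.7 and 26.7 CPM against 2.08, 1.26, 12.8 and 12.2 CPM, with a log2 fold change of 2.30 (standard error 0.74, edgeR adjusted p = 0.349). WT libraries 3 and 4 stood above WT libraries 1 and 2, and all 4 lay below every Thra1PV/+ library. *Serpinb3c*, a mouse relative of the squamous cell carcinoma antigens that inhibit cysteine cathepsins and chymotrypsin-like proteases, had 24.6, 81, 28 and 14 counts against 0, 5, 0 and 1 counts. Its log2 fold change was 4.56 (standard error 1.07, edgeR adjusted p = 0.165), or 3.79 without Thra1PV/+ library 2 and 6.36 without WT library 2, and its near copies *Serpinb3a*, *Serpinb3b* and *Serpinb3d* were at 0 in every library, a split between copies that cannot be checked here. With DESeq2, which called 3.58% of the 22073 genes it gave an adjusted p, *Serpinb3c* (adjusted p = 0.000791), *Serpinb5* (0.0391) and *Serpinb11* (0.0133) were called too, so that 6 members passed, all in this cluster.

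*Serpinb8*, whose product is reported to bind furin, was the tested gene of the cluster in which the genotypes overlapped. It ranged from 24.0 to 33.8 CPM in Thra1PV/+ and from 10.8 to 40.1 CPM in WT libraries, with a log2 fold change of 0.46 (standard error 0.39). The overlap came from WT library 3, at 40.1 CPM. The other WT libraries, at 10.8 to 16.5 CPM, lay below every Thra1PV/+ library. Without 1 library the log2 fold change ranged from 0.30 to 1.04, and *Serpinb8* was not called. *Serpinb12* stayed untested, with 12, 8, 4 and 1 counts in Thra1PV/+ and 0, 21, 1 and 2 counts in WT libraries, and *Serpinb13* was at 0 throughout. The 3 nearest tested coding genes on the *Serpinb5* side were *Vps4b*, *Kdsr* and *Bcl2*, with log2 fold changes of 0.05, 0.04 and -0.06. On the other side the nearest tested coding gene, *Dsel*, starts 4998 kb from the start of the cluster and had a value of -0.69 (edgeR adjusted p = 0.437).

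**Figure D1:**
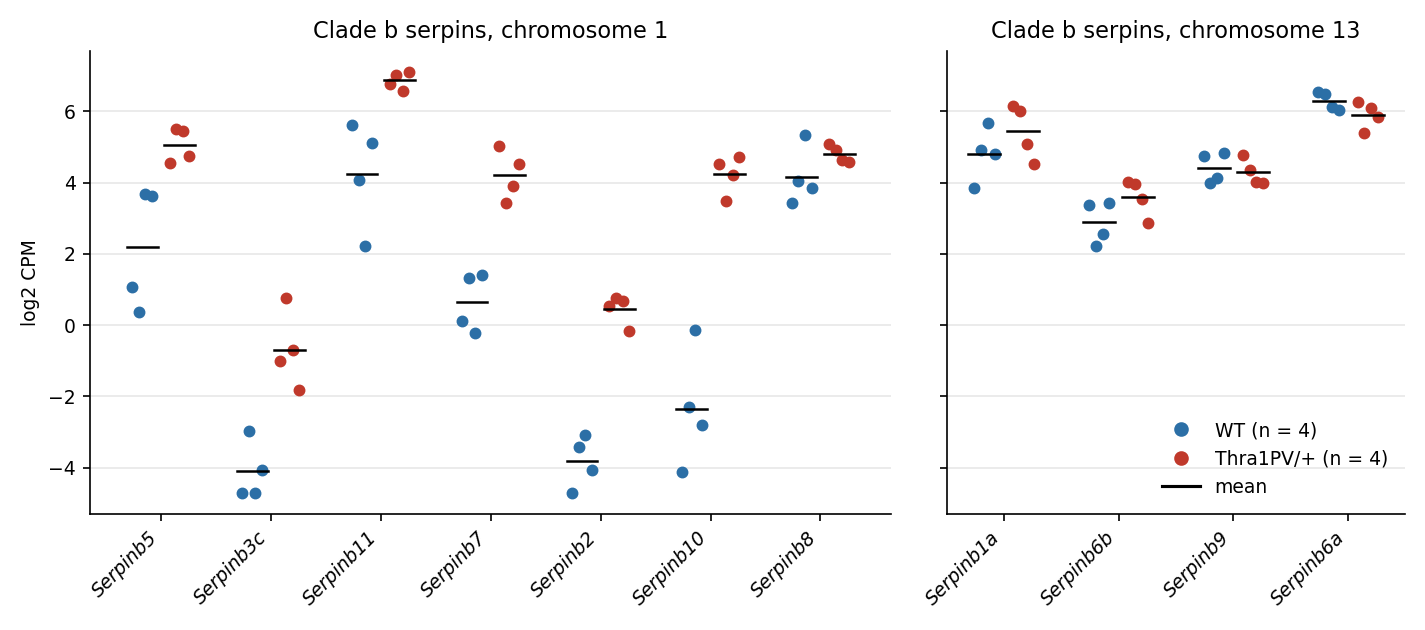
Level of each tested clade b serpin (y axis, log2 CPM with a prior count of 2) in the 4 WT (blue) and 4 Thra1PV/+ (red) libraries, ordered along chromosome 1 (left) and chromosome 13 (right); bars are means. In 6 of the 7 genes on the left every red point lies above every blue point, and in 0 of the 4 on the right.

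**Figure D2:**
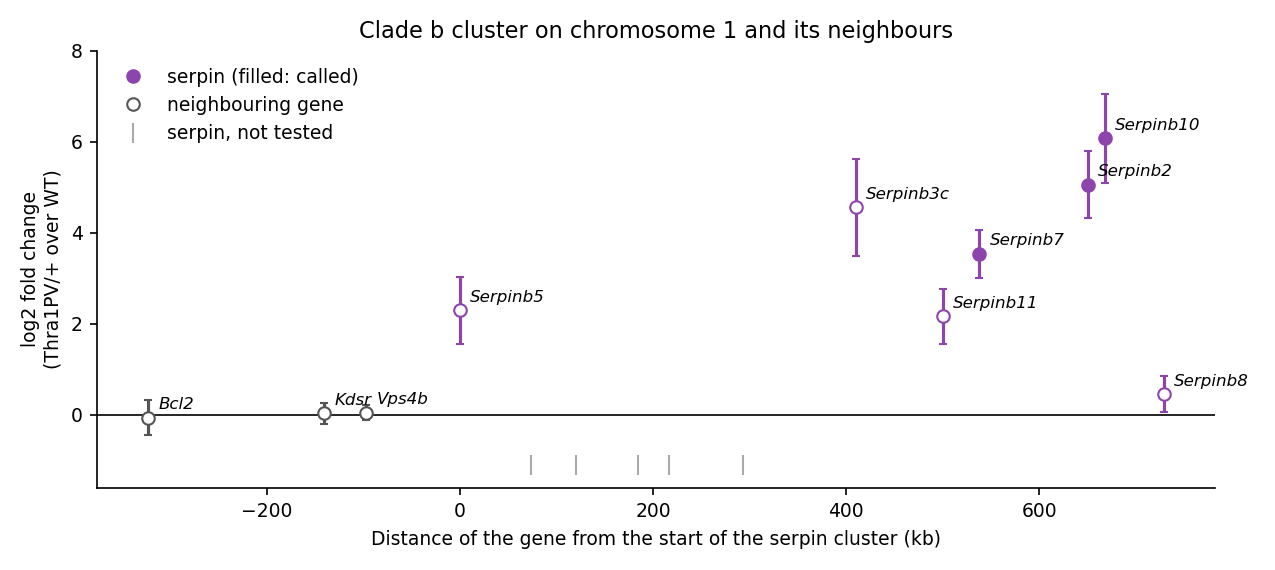
Log2 fold change with its standard error (y axis) against the distance of each gene's lower bound from the start of the chromosome 1 cluster in kb (x axis), for 7 tested serpins (purple, filled where called), 5 untested serpins (ticks) and 3 neighbouring coding genes (grey). *Serpinb10* and *Serpinb2* are the highest points, *Serpinb8* at the far end is at 0.46, and the neighbours on the left lie between -0.06 and 0.05.

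The chromosome 13 members are serpins of broad or leukocyte expression. *Serpinb6a*, an inhibitor of cathepsin G and trypsin-like proteases, measured 76.5, 41.5, 67.8 and 56.9 CPM in the Thra1PV/+ libraries and 92.6, 90.4, 69.2 and 65.1 CPM in the WT libraries. The groups overlapped, and the log2 fold change was -0.39 (standard error 0.21, edgeR adjusted p = 0.618). *Serpinb1a*, which inhibits neutrophil elastase and related granule proteases, measured 70.9, 64.7, 33.4 and 23.0 CPM against 14.3, 30, 51.2 and 28 CPM (log2 fold change 0.64, standard error 0.46, edgeR adjusted p = 0.716). Thra1PV/+ libraries 1 and 2 were the highest of all 8 libraries, but library 4 fell below 3 of the WT libraries. For *Serpinb6b* the log2 fold change was 0.67 (standard error 0.37). *Serpinb9*, the granzyme B inhibitor of cytotoxic lymphocytes, had one of -0.14 (standard error 0.26). *Serpinb9b* was not tested, with 7 to 13 counts in Thra1PV/+ and 1 to 6 counts in WT libraries. Members of the Serpinb1, Serpinb6 and Serpinb9 groups have near-identical copies, so the division of counts among them is uncertain; summing the copies left 3 members called.

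Levels of different genes were compared per length, in the deposited TPM (transcripts per 1000000), whose distributions had been made nearly equal across libraries. Summed over clade b, TPM was 313, 231, 216 and 235 in the Thra1PV/+ libraries and 136, 129, 123 and 126 in the WT libraries. Every Thra1PV/+ library was higher. The gap lay in the chromosome 1 genes, with 121 to 160 TPM in Thra1PV/+ against 19.3 to 35.7 TPM in WT, while the chromosome 13 genes summed to 77.1 to 153 TPM and 89.9 to 110 TPM. *Serpinb11* alone made up 48.2 to 58.4% of the chromosome 1 TPM in Thra1PV/+ and 12.6 to 85.2% in WT libraries, and its rank among all serpins by mean TPM was 4 in Thra1PV/+ and 10 in WT. Clade b held 17.5 to 21% of the TPM of the whole family in Thra1PV/+ libraries and 8.79 to 12.4% in WT libraries. The family total overlapped between genotypes, at 1283 ± 149 TPM and 1317 ± 154 TPM (SD, n = 4 each).

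The secreted clades made up most of that total, and *Serpina1e*, a copy of the elastase inhibitor alpha-1 antitrypsin, was the most abundant serpin by mean TPM in both genotypes. In Thra1PV/+ library 1 and WT libraries 1 and 2 it was below *Serpinh1*, at 209, 169 and 383 TPM against 608, 449 and 424 TPM. *Serpina1e* measured 227, 850, 771 and 563 CPM in the Thra1PV/+ libraries and 213, 424, 1286 and 1023 CPM in the WT libraries. Library 1 of each genotype was the lowest of its group, and the spread within a genotype was larger than the log2 fold change of -0.29 (standard error 0.59, edgeR adjusted p = 0.924). Of all Serpina1 counts, 99.75 to 99.93% were assigned to this copy, and the assignment among copies could not be checked.

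*Serpina9*, known from germinal centre B cells, measured 17.4, 88.6, 69.6 and 84.4 CPM against 6.43, 8.87, 142 and 32.0 CPM. WT library 3 was the highest of all 8, and the log2 fold change was 0.46 (standard error 0.96, edgeR adjusted p = 0.925). Without WT library 3 it was 2.07 (standard error 0.75, edgeR adjusted p = 0.371). *Serpina3g*, a member of the alpha-1 antichymotrypsin group known to stay inside leukocytes although its clade is counted here as secreted, measured 11.9, 71.9, 26.7 and 10.5 CPM against 13.2, 5.85, 8.34 and 55.9 CPM (log2 fold change 0.54, standard error 0.86, edgeR adjusted p = 0.896). One library of each genotype held most of its counts, and the log2 fold change was -0.35 without Thra1PV/+ library 2 and 1.73 without WT library 4. *Serpina3f* measured 0.716, 0.528, 0.266 and 0.368 CPM against 0.172, 0.397, 0.119 and 0.230 CPM, overlapping low values with a log2 fold change of 1.02 (standard error 0.49, edgeR adjusted p = 0.565). The other clade a members tested, *Serpina1b*, *Serpina3i*, *Serpina3n* and *Serpina11*, had log2 fold changes from -0.92 to 2.06 with edgeR adjusted p of at least 0.584.

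*Serpine2*, protease nexin 1, an inhibitor of thrombin and of plasminogen activators, measured 121, 29.1, 48.8 and 62.5 CPM against 84.0, 105, 37.0 and 103 CPM (log2 fold change -0.33, standard error 0.47, edgeR adjusted p = 0.876). Its highest value was in a Thra1PV/+ library.

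*Serpinf1* encodes pigment epithelium-derived factor, a secreted serpin that inhibits no protease and restrains vessel growth. It measured 129, 39.9, 37.1 and 39.7 CPM in the Thra1PV/+ libraries and 109, 244, 131 and 124 CPM in the WT libraries. Thra1PV/+ libraries 2, 3 and 4 lay below every WT library, and Thra1PV/+ library 1 lay among the WT libraries. The log2 fold change over all 8 libraries was -1.30 (standard error 0.48, edgeR adjusted p = 0.412). Without Thra1PV/+ library 1 it was -1.91 (standard error 0.29, edgeR adjusted p = 0.0525) and passed the call, as it did with voom and sample quality weights (-1.75, adjusted p = 0.0576), which made it the 1 secreted member called, at an adjusted p, in any of the fits run.

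*Serpinf2*, the plasmin inhibitor alpha-2 antiplasmin, was low, with 0.275, 0.528, 0.204 and 0.525 CPM against 0.229, 0.0722, 0.617 and 0.377 CPM (log2 fold change 0.25, standard error 0.63, edgeR adjusted p = 0.942). *Serping1*, the inhibitor of the complement proteases C1r and C1s and of kallikrein, measured 130, 62.9, 135 and 85 CPM against 200, 113, 78.1 and 123 CPM (log2 fold change -0.32, standard error 0.34, edgeR adjusted p = 0.828). *Serpinh1*, HSP47, stays in the endoplasmic reticulum as a collagen chaperone and inhibits no protease. It measured 889, 231, 349 and 388 CPM against 745, 649, 156 and 373 CPM, with a log2 fold change of -0.05 (standard error 0.55, edgeR adjusted p = 0.987). By mean TPM it was the second most abundant serpin in both genotypes. All 3 overlapped between genotypes. Leaving out *Serpina3g* and *Serpinh1*, the members known to act inside cells, the median of the remaining 12 secreted members was -0.15.

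Of the clades counted apart, *Serpinc1*, antithrombin, measured 0.202, 0.710, 0.593 and 0.578 CPM against 0.363, 0.217, 0.676 and 0.460 CPM (log2 fold change 0.28, standard error 0.50, edgeR adjusted p = 0.909). *Serpini1*, neuroserpin, measured 2.30, 0.487, 1.41 and 1.75 CPM against 2.27, 2.47, 1.77 and 1.82 CPM (log2 fold change -0.49, standard error 0.45, edgeR adjusted p = 0.795). Both overlapped between genotypes. *Serpind1* was not tested and *Serpini2* was at 0.

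**Figure D3:**
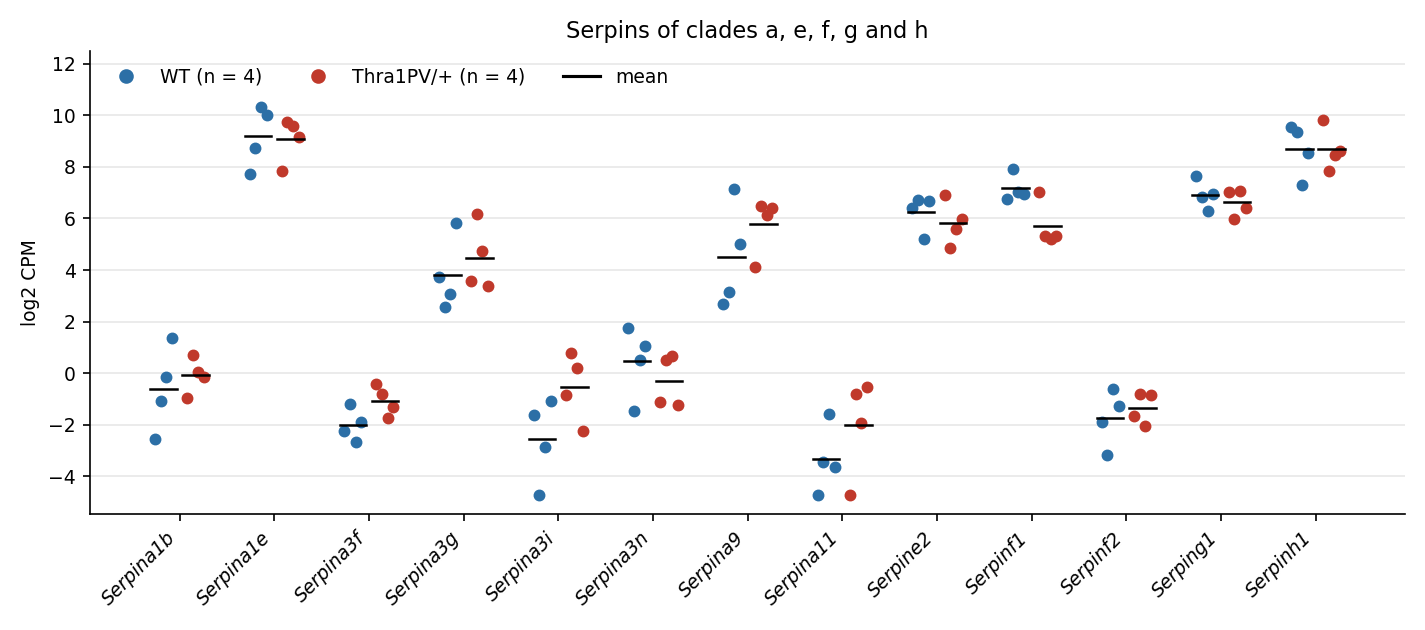
Level of 13 of the 14 tested serpins of clades a, e, f, g and h (y axis, log2 CPM with a prior count of 2) in the 4 WT (blue) and 4 Thra1PV/+ (red) libraries; bars are means. The genotypes overlap in all 13 genes, and in *Serpinf1* a single red point, library 1, lies among the blue ones.

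**Figure D4:**
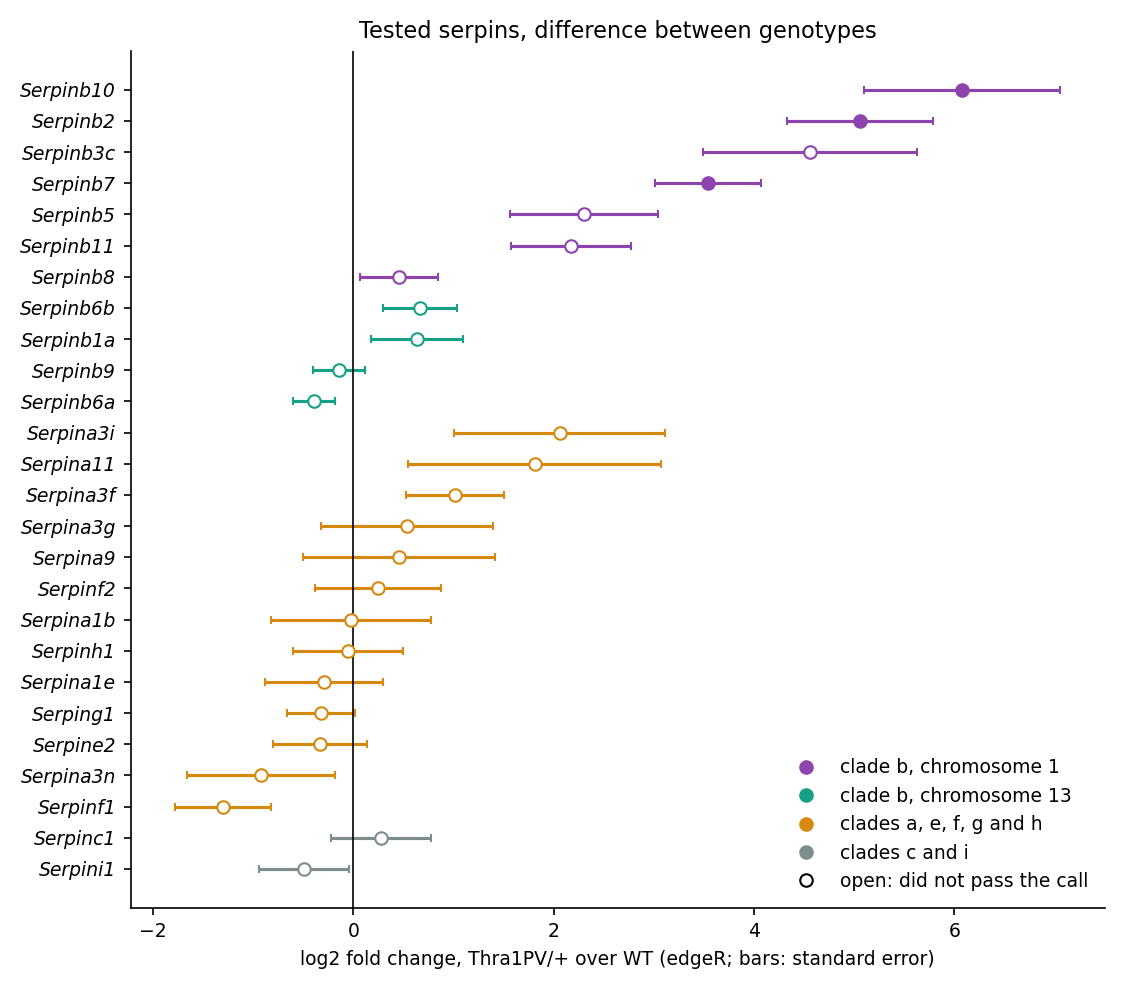
Log2 fold change of Thra1PV/+ over WT (x axis, bars are standard errors from edgeR) for 26 of the 27 tested serpins, coloured by clade and cluster and filled where called. The chromosome 1 genes of clade b reach from 0.46 to 6.08, those of chromosome 13 from -0.39 to 0.67, and the secreted-clade genes shown from -1.30 to 2.06.

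The summed markers of squamous epithelium, like the summed chromosome 1 serpins, were higher in every Thra1PV/+ library than in any WT library. Of the 15 markers listed, none of them a serpin, 12 were tested and 11 were called higher. The 11 include *Ivl*, with 2, 0, 1 and 2 counts in WT libraries, and *Dsc3*, with 0, 4, 1 and 3. These entered the test through the Thra1PV/+ libraries, in which they were high. Over all tested genes 0.99% were called in either direction. The markers summed to 3101, 4644, 4835 and 3577 CPM in Thra1PV/+ libraries 1 to 4 and to 2.25 to 69.3 CPM in WT libraries. Within Thra1PV/+ the order of libraries differed, with the chromosome 1 serpins at 160, 134, 121 and 158 TPM. *Trp63*, the transcription factor of basal squamous cells, measured 56.4, 93.5, 74.5 and 53.2 CPM against 0.458, 2.04, 0.836 and 0.670 CPM. *Krtdap*, *Sprr3* and *Sprr1b*, genes of the outer layers, were not tested. In bulk RNA of this kind fewer cells of a type and less RNA per cell cannot be told apart, and the part of the squamous markers in the serpin values was not tested. Simple epithelium markers, 0 of 8 called, summed to 2288 to 5826 CPM in Thra1PV/+ and 2340 to 6623 CPM in WT libraries.

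Markers of other cells differed between single libraries and, in part, between the genotypes. Stromal markers, 0 of 8 called and 1 lower at an unadjusted p under 0.05, summed to 5182 CPM in Thra1PV/+ library 1, against 409 to 1184 CPM in the other Thra1PV/+ libraries, and to 1537 to 5127 CPM in WT libraries. Thra1PV/+ library 1 was also the highest Thra1PV/+ library for *Serpinf1*, *Serpine2* and *Serpinh1*, and the part of stroma in those values was not tested. Smooth muscle markers, 0 of 7 called and 7 lower at an unadjusted p under 0.05, summed to 145 to 675 CPM in Thra1PV/+ libraries and to 12922, 640, 568 and 1132 CPM in WT libraries 1 to 4. At that p 4.72% of all tested genes were lower. *Myh11* and *Actg2* were lower in every Thra1PV/+ library than in any WT library, a pattern found in 2.49% of all tested genes. Without WT library 1, which stood far above the rest, *Serpinb2*, *Serpinb7* and *Serpinb10* were called, as with it.

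Neutrophil markers, 0 of 7 tested called and 4 higher at an unadjusted p under 0.05, had a median log2 fold change of 1.96 and summed to 80.3 to 740 CPM in Thra1PV/+ and 10.6 to 146 CPM in WT libraries, with *Ngp* and *Camp* at or near 0. Over all tested genes 5.05% were higher and 4.72% lower at that p. T and natural killer cell markers, 0 of 10 called, had 4 higher at that p (*Cd3d*, *Cd3e*, *Cd3g* and *Cd4*). Mast cell markers, 0 of 2 tested called, had 1 higher (*Kit*), and red blood cell markers, 0 of 5 called, had 2 lower. Uterine gland, macrophage, endothelium, and liver and plasma markers had 0 called and 0 past that p. The part of these cells in the serpin values was not tested.

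**Figure D5:**
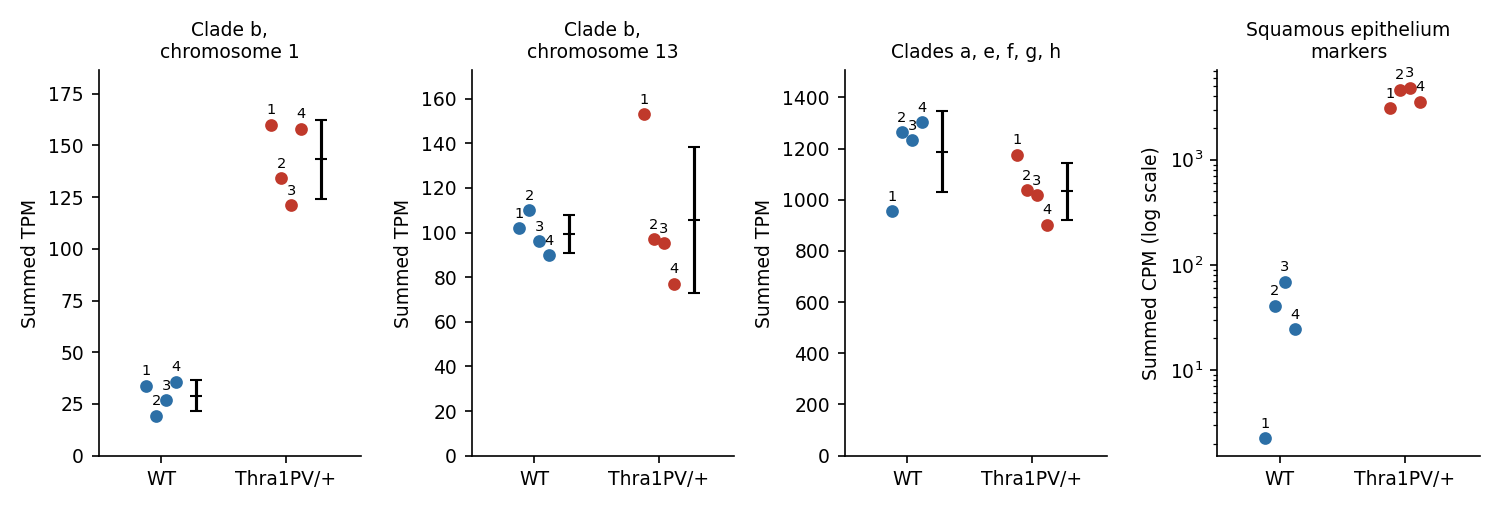
Summed level per library of the clade b serpins on chromosome 1 and on chromosome 13, of the secreted clades (y axes, TPM, starting at 0, with the mean ± SD at the side) and of 15 squamous epithelium markers (y axis, CPM, log scale), with library numbers beside the points. The genotypes are apart in the first panel, at 19.3 to 35.7 and 121 to 160 TPM, and in the last, and overlap in the middle panels.

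The proteases that serpins inhibit and the receptors that clear their complexes were described from 7 lists, of which 95 genes were found and 68 tested. Across these, 1 of the 68 was called in edgeR, *F10*, the coagulation protease factor X, beside 0.99% of all tested genes. With DESeq2 13 of the listed genes were called, beside 3.58% of all genes it gave an adjusted p. *F10* had 77, 121, 214 and 129 counts in Thra1PV/+ and 2, 7, 8 and 23 counts in WT libraries. It thus entered the test through the libraries in which it was high. It measured 1.41, 2.46, 4.37 and 2.26 CPM in the Thra1PV/+ libraries and 0.0382, 0.126, 0.159 and 0.481 CPM in the WT libraries, with every Thra1PV/+ library above every WT library, a log2 fold change of 3.70 (standard error 0.74, edgeR adjusted p = 0.0944). The call held in 1 of the 8 fits without 1 library, the one without WT library 4, and the adjusted p ranged up to 0.266. In the same list of 12 tested plasminogen and coagulation genes the median was 0.05. *Thbd*, the thrombin receptor thrombomodulin, and *Vtn*, vitronectin, an adhesive glycoprotein of plasma and matrix, had log2 fold changes of -1.20 and -1.62 (edgeR adjusted p = 0.218 and 0.381), with all Thra1PV/+ libraries below all WT libraries, a pattern found in 2.49% of all tested genes. The plasminogen activators *Plat* and *Plau*, targets of *Serpinb2*, had log2 fold changes of 0.64 and 0.82 (edgeR adjusted p = 0.812 and 0.615).

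Epithelial serine proteases, the kallikrein-related and membrane-anchored enzymes of squamous and other epithelia, had a median of 1.72 over 17 tested genes. Of these 0 were called in edgeR and 7 were higher at an unadjusted p under 0.05, against 5.05% of all tested genes. The 7 include *Tmprss11f*, which had 0, 1, 10 and 0 counts in WT libraries and entered the test through the Thra1PV/+ libraries. *Tmprss11b*, *Prss27* and *Tmprss13* had the lowest p, with log2 fold changes of 4.94, 6.31 and 1.97 (edgeR adjusted p = 0.134, 0.141 and 0.187). *Klk5* and *Klk6* were at 0 in every library. Other protease inhibitors had a median of 0.28 over 15 tested genes with 0 called. The lowest p were those of *Spink5*, the kallikrein inhibitor LEKTI of stratified epithelia (log2 fold change 5.54, edgeR adjusted p = 0.215), *Csta1*, a stefin that inhibits cysteine cathepsins (4.89, 0.241), and *Cst6*, cystatin M (1.92, 0.456). *Csta1*, with 0, 2, 11 and 1 counts in WT libraries, also entered the test through the Thra1PV/+ libraries.

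The proteases of leukocyte granules, some of them targets of the chromosome 13 serpins, had 0 of 5 tested genes called and a median of -0.34, and *Elane*, *Ctsg* and *Mcpt8* were at 0 in every library. The log2 fold change of the granzyme B gene *Gzmb*, target of *Serpinb9*, was -0.64 (edgeR adjusted p = 0.870). Of 10 cysteine cathepsins 0 were called, with a median of -0.27, and *Ctss* had the lowest p (log2 fold change 0.98, edgeR adjusted p = 0.367). The complement proteases held by *Serping1* had 0 of 4 tested genes called and a median of 0.12. Receptors that clear serpin complexes had 0 of 5 called and a median of -0.09, with *Lrp1*, the chief of these, at a log2 fold change of 0.15 and *Vldlr* at -0.92 (edgeR adjusted p = 0.937 and 0.435).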

How the data were processed

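RNA-seq of laser-captured endometrium was analysed in 4 Thra1PV/+ and 4 WT mice, grouped by the genotype in the labels. Per the study's methods and the labels, the authors made stranded, paired-end mRNA libraries, trimmed reads with Trimmomatic, quantified them with Salmon and used mm10 (GRCm38); the annotation release is not given in the sources used here. The deposited table of estimated counts per gene was rounded to whole numbers and used for every test. The deposited TPM values, which the authors had brought to nearly equal distributions (sorted values differed by at most 0.291 TPM between libraries), were used for levels per length; 1 column of that table that matches no sample used here was left out. Symbols and positions came from GENCODE M21, and 52220 of 52325 genes had one. Identifiers without a symbol held at most 0.00897% of counts in a library.

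Genes passing edgeR's filterByExpr (minimum count 10, minimum total 15) were normalised by TMM and compared by edgeR 4.0.16 quasi-likelihood tests (R 4.3.3) with Benjamini-Hochberg adjustment over all 18174 genes. Calls needed a fold change of at least 2 and an adjusted p of at most 0.1, the thresholds of the study. Standard errors are of the log2 fold change, and log2 CPM used a prior count of 2. The study's own test was DESeq2, run here (version 1.42.0) as an alternative with limma and voom 3.58.1, other filters and scaling, a replicate block, summed copies and each library left out. The fitting functions were tested on simulated data. Values in every library are given for called members, for the 3 most abundant tested members of each clade and for the 6 uncalled members of lowest p. Of the other lists, values are given for called genes, and up to 3 genes by lowest p are named. Further genes were named for their role or their counts whatever their p, such as *Plat*, *Plau*, *Gzmb* and *Lrp1*. The values of 1 tested secreted-clade member are not reported here; it is counted in the totals. Members, lists and rules were chosen with earlier results of these data known. Promoters are RefSeq's. Library totals ranged from 48791883 to 59819099 counts.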

Additional observations from a re-analysis of the deposited data

Results flagged for a closer look

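In 40 groups of 4 libraries (20 serpins in each genotype, log2 CPM), 2 held a library far from the other 3 by Dixon's test, and chance alone flags about 1 group in 20, here 2. Both were Thra1PV/+ library 1. *Serpina9* was at 4.12 log2 CPM there and at 6.12 to 6.47 in the other Thra1PV/+ libraries. *Serpinf1* was at 7.02 there and at 5.22 to 5.32 in the others. Thra1PV/+ library 1 also held 5182 CPM of stromal markers, against 409 to 1184 CPM in the other Thra1PV/+ libraries, and the part of stroma in these values was not tested.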

How the results depend on the processing

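Other tests changed how many serpins were called, from 3 in edgeR, all of clade b, to 6 with DESeq2 (6 in clade b), 5 with voom and quality weights (1 of them secreted, *Serpinf1*), 1 with at least 10 counts in every library (1 in clade b, *Serpinb7*, with 19 members tested) and 8 at an unadjusted p under 0.05 with no fold threshold (6 in clade b, 2 secreted). Without each library in turn, 1 to 4 members were called, 1 to 3 in clade b and 0 to 1 in the secreted clades; the lowest was without WT library 4, where *Serpinb7* alone passed, and the secreted call, *Serpinf1*, came without Thra1PV/+ library 1. The clade b median of 2.17 became 0.92 with DESeq2 and 0.92 with at least 1 count in any library, which add members of low count, 0.66 with at least 10 counts in every library, and 0.76 on log2 TPM with a pseudocount of 1; it ranged from 1.84 to 2.33 without 1 library, the lowest without WT library 3. The secreted median of -0.04 became 0.38 with DESeq2 and 0.39 with at least 1 count, and ranged from -0.11 to 0.14 without 1 library. On log2 TPM, 2 members were called with a pseudocount of 1 (*Serpinb2* had an adjusted p of 0.103) and 3 with one of 0.1. DESeq2 size factors, at least 1 count in any library and summed copies each left 3 called.

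Replicate numbers shared by the labels were checked as pairs. Deviations of same-numbered libraries correlated at 0.27, -0.44, 0.34 and -0.16, and 2 of 8 libraries correlated best with their own number, so the numbers were not treated as pairs. With the number as a replicate block, 0 serpins were called (0 in clade b and 0 in the protease and inhibitor lists), 82 genes passed in all against 180, and the clade b median was 2.59; *Serpinb2*, *Serpinb7* and *Serpinb10* then had adjusted p of 0.107, 0.115 and 0.107.

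The number of protease and inhibitor genes called, an alternative added after seeing the data, was 1 in edgeR, 13 with DESeq2, 5 with voom, 2 and 4 on log2 TPM with pseudocounts of 1 and 0.1, 0 with at least 10 counts in every library and 0 to 3 without 1 library. The cause of these shifts was not tested. Of 335 values of the 20 serpins under other settings, 13 changed sign, none of them called. *Serpinh1* was at 0.01 with the replicate block and at 0.05 and 0.05 on log2 TPM, and ranged from -0.53 to 0.28 without 1 library. The others changed sign only without 1 library: *Serpina1e* ranged from -0.55 to 0.15, *Serpina3g* from -0.35 to 1.73, *Serpinf2* from -0.05 to 0.78 and *Serping1* from -0.48 to 0.02. With 4 libraries a genotype, members with few counts, such as *Serpinb2*, *Serpinb3c* and, outside library 3, *Serpinb10* in WT, rest on few reads.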
